A study of Homo sapiens with 13 samples.

Results

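The cells described here are the tumour cells with the highest expression of a set of immediate-early stress genes in primary xenograft tumours of BM1, a bone-metastatic line derived from MDA-MB-231 human breast cancer cells. They were chosen by a score, the mean log2(CPM + 1) of FOS, FOSB, JUN, EGR1, ATF3, IER3 and KLF6, where CPM is a gene's count per 1000000 counts of its cell. Within each of 6 tumours, the 25% of cells with the highest score (called high cells here) were set against the 25% with the lowest score (low cells). Of 1569 cells in the table, 1482 had at least 2000 detected genes, and 368 of these were high cells and 368 were low cells, with 55 to 68 of each per tumour. The class is therefore a range cut from a score and not a cell type. The lowest score among high cells ran from 7.77 to 8.52 over the tumours and the highest score just below it from 7.76 to 8.50, and 91 cells lay within 0.1 of the upper cut.

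The study implanted 1000000 BM1 cells in the mammary fat pad of nude mice (athymic, hence without T cells) and collected the primary tumours after 3 weeks. CTRL tumours came from vector control cells and RKIP tumours from BM1 cells carrying the S153E form of RKIP, the Raf kinase inhibitory protein encoded by PEBP1. Each of 3 replicate experiments gave 1 CTRL and 1 RKIP tumour, whose cells shared 1 chip (columns 01 to 10 for CTRL, 11 to 20 for RKIP). The tumours were dissociated, mouse cells and dead cells were removed, and cells were captured singly on the chip of a Fluidigm C1 instrument. The experiments are numbered 1, 2 and 3 here by the ending of the cell names, which the labels do not tie to a replicate number. The deposited cell names do not say whether a tumour is 1 mouse, and both lines descend from 1 parental line.

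Immediate-early genes are transcribed within minutes of a stimulus, without new protein synthesis, when growth factors, stress kinases or tissue handling activate transcription factors already present in the cell. FOS, FOSB and JUN encode subunits of AP-1, a dimeric transcription factor, EGR1 a zinc finger activator, and ATF3 a stress-induced repressor or activator that pairs with JUN proteins. KLF6 is a zinc finger transcription factor, and IER3 a regulator of survival and ERK signalling. Many such genes are switched on through serum response factor, which binds CArG boxes, or through CREB and ATF proteins, which bind cAMP response elements (CRE). RKIP restrains the Raf kinase that feeds the ERK pathway, one of the routes to these promoters.

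The 250 bases before the start site of 4 of the genes are shown because they hold such letters, EGR1, JUN and ATF3 as score genes and JUND as a gene that was higher in high cells outside the score. The sequences are from RefSeq on GRCh38.p14 and run 5′ to 3′ on the strand of the gene, at chr5:138465229-138465478 (plus strand), chr1:58784048-58784297 (minus), chr1:212565157-212565406 (plus) and chr19:18281623-18281872 (minus). Capitals mark matches to a CArG box, to the EGR motif GCGNGGGCG or to the ATF/CRE-like motif TGACNTCA.
EGR1: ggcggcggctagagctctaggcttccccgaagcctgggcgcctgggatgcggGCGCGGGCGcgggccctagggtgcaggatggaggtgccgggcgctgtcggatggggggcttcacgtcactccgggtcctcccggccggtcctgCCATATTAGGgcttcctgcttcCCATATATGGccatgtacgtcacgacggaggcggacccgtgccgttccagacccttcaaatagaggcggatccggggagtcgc
JUN: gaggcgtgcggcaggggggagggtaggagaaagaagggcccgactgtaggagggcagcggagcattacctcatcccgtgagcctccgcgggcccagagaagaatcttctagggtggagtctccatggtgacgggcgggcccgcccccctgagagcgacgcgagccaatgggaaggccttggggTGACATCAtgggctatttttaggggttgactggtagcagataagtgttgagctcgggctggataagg
ATF3: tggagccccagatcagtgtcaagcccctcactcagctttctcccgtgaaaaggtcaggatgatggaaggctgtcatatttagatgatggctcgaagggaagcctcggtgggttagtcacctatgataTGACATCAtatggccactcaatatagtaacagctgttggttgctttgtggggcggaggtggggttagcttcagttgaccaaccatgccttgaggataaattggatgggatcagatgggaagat
JUND: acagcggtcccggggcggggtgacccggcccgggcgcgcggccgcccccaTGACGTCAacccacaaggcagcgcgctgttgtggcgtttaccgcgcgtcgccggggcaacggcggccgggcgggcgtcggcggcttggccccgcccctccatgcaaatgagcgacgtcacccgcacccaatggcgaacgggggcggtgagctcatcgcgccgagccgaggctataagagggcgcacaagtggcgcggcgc

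EGR1 held 2 CArG boxes, at positions -105 to -96 and -83 to -74 from its start site, and 1 EGR match. The ATF/CRE-like match lay at -67 to -60 in JUN and at -123 to -116 in the first of 2 ATF3 start sites, and the JUND match at -200 to -193 was a full CRE, TGACGTCA. Searched on both strands in the windows of 35116 promoters, a CArG box was found in 1.16%, TGACNTCA (which includes the CRE) in 6.87%, the CRE alone in 1.65% and the EGR motif in 8.41%. TGACNTCA was found in 3 of the 7 windows of the score genes and 1 of 9 windows of the genes called higher below, and the AP-1 motif TGANTCA (6.57% of all promoters) in none of these 16. The TGACNTCA motif was added after these windows had been read. RefSeq windows were at hand for 6 of the 7 score genes and 6 of the 7 called genes, all but IER3 and SNORD3A. A match describes letters in the window, not a bound site.

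The high cells of a tumour held 4781492 to 7674528 counts in all and the low cells 3895609 to 9215188. The median high cell had 56724 to 116006 counts and the median low cell 37541 to 112298, and high cells were the deeper class in 5 of 6 tumours. Cells with at least 20000 counts were also thinned to 20000 (51 cells fell short), and the classes were cut again on the thinned score. In all, 296 of the 368 high cells were high there too. In these classes the median high cell still had more detected genes than the median low cell in 6 of 6 tumours (2443 to 3548 against 2003 to 3206). Every thinned cell holds 20000 counts, so the total cannot differ between the classes. Over 7370 genes, the mean log2 level of thinned cells was nevertheless higher in high cells by a median of 0.22. This is a shift in means over cells, and in the sums of unthinned counts the median log2 fold change was 0.01. The shift in cell means was 0.03 when the classes were taken within 3 classes of detected genes. No cell name was shared by 2 cells, while 441 of 577 chip positions were used in all 3 experiments.

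The score genes were higher in high cells by construction, and their levels are given as a description with no test. FOS stood at 538, 632 and 707 CPM (lowest, median and highest tumour) in the summed high cells and at 62.8, 128 and 206 CPM in the low cells. EGR1 stood at 608, 745 and 822 CPM against 60.9, 135 and 177 CPM. The classes were apart in every tumour for both genes, by a median ratio of 4.89 for FOS and 5.77 for EGR1.

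JUN stood at 674, 1206 and 1648 CPM in high cells and at 88.5, 267 and 394 CPM in low cells. FOSB stood at 836, 1199 and 1319 CPM against 155, 306 and 419 CPM. ATF3 had the widest gap, with 326, 489 and 628 CPM against 18.6, 65.4 and 113 CPM and a median ratio of 8.57, while KLF6 had the narrowest, at 2.25, and stood at 328 to 886 CPM in low cells. IER3 was the least abundant of the 7, at 122 to 183 CPM in high cells and 21.9 to 41.0 CPM in low cells.

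**Figure D1:**
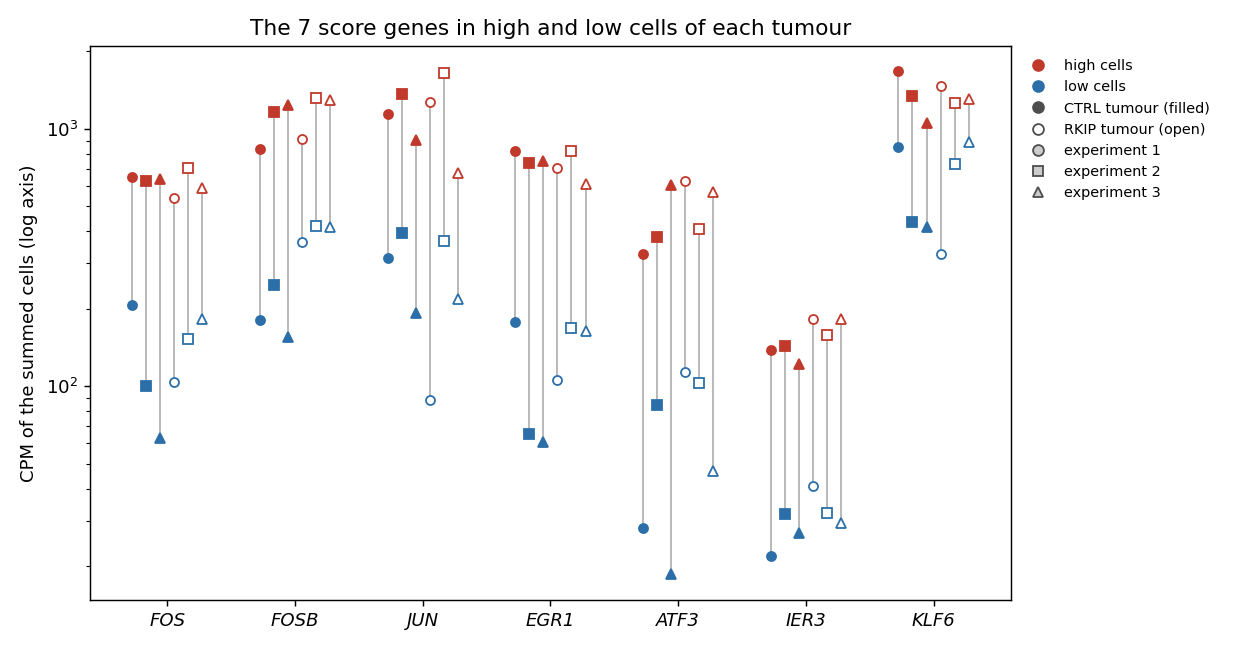
CPM of the summed cells (log axis) for the 7 score genes, with 1 line per tumour joining its high cells (red) to its low cells (blue), CTRL tumours filled and RKIP tumours open, and the marker shape giving the experiment. The red points stand above the blue points of the same gene for every gene, as the score chose them.

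How many of the 7 genes a cell held was largely set by the score as well, and is given as a description. Before thinning, between 85.2% and 100% of high cells had a count of all 7 genes, and every one had a count of at least 6. After thinning, with classes cut again, IER3 was seen in 68.9% to 100% of high cells. Among low cells 3.64% to 18.6% had all 7, and the median low cell had 5 or 6 of them. Low cells were thus not devoid of these genes, while their lower number per cell follows from the score.
Across the cells of a tumour, the pairs of score genes were only loosely related. Median Spearman correlations over the 6 tumours, which share depth between genes, ran from 0.03 for JUN with IER3 to 0.40 for FOS with EGR1, with FOSB and EGR1 at 0.35 and FOS and FOSB at 0.30. ATF3 stood at 0.18 with FOS and 0.08 with JUN.

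Each score gene was then tested in cells chosen by the other 6, so that it did not choose its own cells. FOS, FOSB, EGR1 and ATF3 were higher in high cells (4 of 7, edgeR's quasi-likelihood test with Benjamini-Hochberg adjustment over all genes, tumour as block), where 0.0428%, 0.0606%, 0.0692% and 0.0516% of all genes were called with those 4 scores and 0.0343%, 0.0604% and 0.0431% with the scores without JUN, IER3 and KLF6. EGR1, without itself in the score, stood at 556, 683 and 740 CPM in high cells and at 65.3, 180 and 287 CPM in low cells. The groups did not overlap, and the log2 fold change was 1.93 (SE 0.25, adjusted p = 0.032).

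FOS stood at 486, 565 and 646 CPM against 82.5, 163 and 253 CPM, also without overlap, with a log2 fold change of 1.81 (SE 0.23, adjusted p = 0.048). FOSB changed by 1.57 (SE 0.21, adjusted p = 0.038) and ATF3 by 1.34 (SE 0.17, adjusted p = 0.025), each higher in 6 of 6 tumours. JUN was higher in 6 of 6 tumours by 0.98 (SE 0.16), which missed the threshold (adjusted p = 0.097). KLF6 and IER3 missed it by more, at 0.68 (SE 0.17, adjusted p = 0.511) and 0.60 (SE 0.27, adjusted p = 0.816). KLF6 was higher in 6 tumours and IER3 in 5. By edgeR none of the 7 passed without CTRL 2, RKIP 1, RKIP 2 or RKIP 3, and 2 passed without CTRL 1 or CTRL 3, while log2 fold changes stayed above 0 in each of these fits. After thinning, ATF3 changed by 0.86 (SE 0.20, adjusted p = 0.216 by edgeR) and was not called. FOS, FOSB and EGR1 stayed called after thinning (adjusted p = 0.028, 0.031 and 0.0031 by edgeR).

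**Figure D2:**
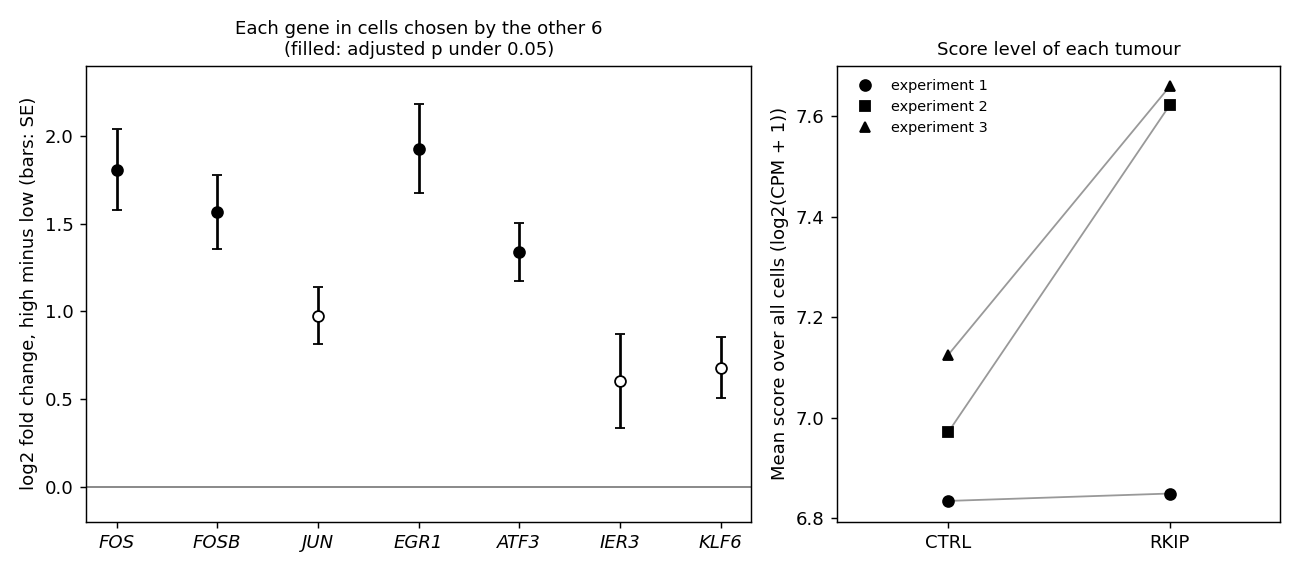
Left, log2 fold change (SE bars) of each score gene between the high and low cells that the other 6 genes choose, filled where the adjusted p was under 0.05. Right, mean score over all cells of each tumour, with lines joining the CTRL and RKIP tumours of 1 experiment, where 3 of 3 lines rise and the line of experiment 1 is nearly flat.

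Outside the score, 7 of 11654 genes tested were higher in high cells and 0 were lower (0.0601% and 0% of genes, edgeR on counts summed per tumour and class, adjusted p under 0.05). They were GADD45B, SNORD3A, SGK1, JUNB, JUND, ODC1 and NFKBIA. For all 7 every high sum stood above every low sum, as it did for 0.403% of all genes, while every high sum stood below every low sum for 0.12%. An unadjusted p under 0.05 was seen for 671 of the 11654 genes (401 higher and 270 lower), a cut that unchanged genes pass at a rate of 0.05. DESeq2 called 99 higher and 21 lower (1.03%), among them all 7.

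JUNB and JUND encode the JUN paralogs that also form AP-1. JUNB stood at 104, 160 and 217 CPM in high cells and at 39.3, 42.8 and 82.1 CPM in low cells, with a log2 fold change of 1.67 (SE 0.23, adjusted p = 0.032). JUND stood at 394, 524 and 586 CPM against 150, 203 and 268 CPM, with a log2 fold change of 1.24 (SE 0.16, adjusted p = 0.019). Both rose in all 6 tumours.

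GADD45B, a stress-induced activator of the MTK1 kinase pathway to p38 and JNK, stood at 216, 539 and 578 CPM in high cells and at 78.7, 113 and 215 CPM in low cells. Its log2 fold change was 1.87 (SE 0.22, adjusted p = 0.019), and its lowest high sum, in CTRL 1, lay just above its highest low sum, in RKIP 2. SGK1, a serum- and glucocorticoid-induced kinase, stood at 439, 602 and 804 CPM against 113, 207 and 231 CPM, a log2 fold change of 1.70 (SE 0.21, adjusted p = 0.019). ODC1, the rate-limiting enzyme of polyamine synthesis, stood at 414, 446 and 634 CPM against 129, 211 and 260 CPM, a log2 fold change of 1.20 (SE 0.14, adjusted p = 0.019). The classes of these genes were apart in every tumour.

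NFKBIA encodes IκBα, the inhibitor that holds NF-κB in the cytoplasm and is itself an NF-κB target. It stood at 397, 578 and 694 CPM in high cells and at 186, 258 and 343 CPM in low cells, a log2 fold change of 1.09 (SE 0.13, adjusted p = 0.019). SNORD3A, the U3 small nucleolar RNA used in ribosomal RNA processing, stood at 86.8, 181 and 218 CPM against 23.1, 45.3 and 71.0 CPM, a log2 fold change of 1.82 (SE 0.23, adjusted p = 0.019). SNORD3A has near-identical copies among which the counting could split reads, so its value is uncertain.

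**Figure D3:**
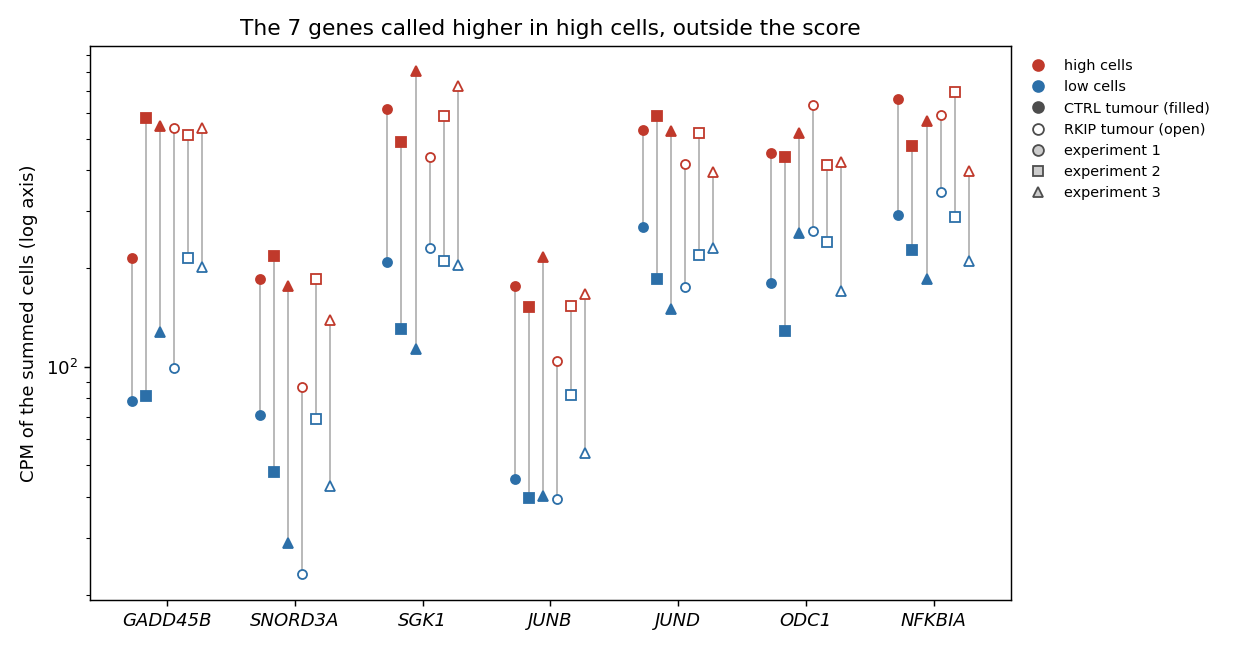
CPM of the summed cells (log axis) for the 7 genes called outside the score, drawn as in the plot of the score genes. Each line joins the high (red) and low (blue) cells of 1 tumour, and red lies above blue in 6 of 6 tumours for each gene.

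Set against 4 equal bins of the score within each tumour, these genes differed in how they climbed. JUNB stood higher in each successive bin in 5 of 6 tumours, with medians of 42.8, 84.8, 128 and 160 CPM from the lowest to the highest bin, and SNORD3A in 4 tumours with 45.3, 71.5, 150 and 181 CPM. ODC1 did so in 2 tumours: its median was 211 CPM in the lowest bin and 361, 395 and 446 CPM in the others, so that most of its difference lay between the lowest bin and the rest. NFKBIA did so in 1 tumour, with medians of 258, 396, 390 and 578 CPM.

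These calls leaned on having all 6 tumours. Leaving out CTRL 1 kept 6 of the 7 genes (all but JUNB) and added CXCL2, while leaving out CTRL 2, CTRL 3, RKIP 1, RKIP 2 or RKIP 3 left 0 calls, with all 7 log2 fold changes above 0 in every fit. With high and low cells taken within each of the 10 chip columns of a tumour, GADD45B alone was called. After thinning to 20000 counts 9 genes were called, 3 of them among the 7. The share of high cells differed between chip columns, from 0% to 42.9% of the cells of a column in RKIP 3.

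A second test, limma on the mean over cells of log2(CPM + 1) after thinning, weighs every cell alike. In such cells 1 count is worth 50 CPM, so the mean largely follows how many cells hold a count. It called 372 of 7370 genes higher and 0 lower (5.05% and 0%), with all 7 genes above among them, on top of the shift of 0.22 in the median gene. After centring on that median gene the split was 113 higher and 7 lower. Within classes of detected genes it was 112 higher and 2 lower (1.52% and 0.0271%), and 110 of the 112 were among the 372.

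Immediate-early transcription factors outside the score had the highest median of the lists with at least 5 genes tested. Of 24 in the list, 22 passed the filter on low counts, with a median log2 fold change of 1.24 against 0.01 over all genes tested. 2 of the 22 were called in the sums (JUNB and JUND) and 10 were higher in all 6 tumours, against 0.0601% and 2.81% of all genes. In the cell means 11 of 19 were called higher, and 9 of 19 within classes of detected genes, against 5.05% and 1.52% of all genes. CSRNP1, a nuclear protein induced by AXIN1, stood at 44.5, 78.5 and 104 CPM in high cells and at 13.3, 21.9 and 32.1 CPM in low cells, without overlap (log2 fold change 1.77, SE 0.27, adjusted p = 0.064). HES1, a Notch target and repressor, did not overlap either, at 323 to 623 CPM against 169 to 284 CPM (1.13, SE 0.21, adjusted p = 0.142).

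KLF4 and NR4A2 were called in the cell means and not in the sums, and the cause was not tested. KLF4, a zinc finger factor, stood at 98.4 to 169 CPM in high cells and at 20.5 to 119 CPM in the low cells of 5 tumours, but at 576 CPM in the low cells of RKIP 1. Its log2 fold change in the sums was 1.23 (SE 0.66, adjusted p = 0.903), while its difference in the cell means was 2.41 (SE 0.31) and passed limma's test. NR4A2, an orphan nuclear receptor, was higher in 6 of 6 tumours by 1.38 in the sums (SE 0.46, adjusted p = 0.722), and by 2.29 (SE 0.31) in the cell means, where it was called.

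Other immediate-early genes, which act downstream of or beside the factors, gave the highest share of calls per cell. Of 29 in the list, 27 passed the filter. Their median log2 fold change was 0.96, and 12 were higher in all 6 tumours, as were 2.81% of all genes. GADD45B and SGK1 were the 2 called in the sums, where 0.0601% of all genes were called higher. The cell means called 24 of 26 higher, and 21 of 26 within classes of detected genes, against 5.05% and 1.52% of all genes.

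IER2, an immediate-early nuclear protein, stood at 134, 159 and 223 CPM in high cells and at 32.9, 53.1 and 74.3 CPM in low cells (log2 fold change 1.64, SE 0.26, adjusted p = 0.064). NEDD9, a focal adhesion scaffold, stood at 169, 205 and 240 CPM against 33.1, 69.2 and 99.0 CPM (1.64, SE 0.26, adjusted p = 0.064). CCN2, a matricellular growth factor, stood at 625.2, 703 and 861 CPM against 203, 378 and 530 CPM (0.96, SE 0.15, adjusted p = 0.064). None of these 3 genes overlapped between the classes, and all missed the threshold in the sums and were called in the cell means. PPP1R15A, the phosphatase subunit GADD34 that reverses translation block under stress, had a cell-mean difference of 2.59 (SE 0.26), but its sums overlapped, at 374 to 718 CPM against 188 to 1342 CPM. The highest of the low sums was that of RKIP 2.

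ERK feedback genes, the phosphatases and Sprouty proteins that restrain the ERK pathway, gave 0 calls among 16 tested in the sums, with a median log2 fold change of 0.44. By limma on cell means 4 of 15 were called higher and 3 within classes of detected genes, against 5.05% and 1.52% of all genes. DUSP1, a phosphatase of p38, JNK and ERK, stood at 120, 136 and 211 CPM in high cells and at 19.3, 52.0 and 103 CPM in low cells (log2 fold change 1.40, SE 0.37, adjusted p = 0.560). DUSP6, which is specific to ERK, stood at 372, 530 and 852 CPM against 277, 313 and 624 CPM (0.58, SE 0.23, adjusted p = 0.816), with overlap. The EGF receptor family and its ligands had 0 of 7 called in the sums, with a median log2 fold change of 0.14. HBEGF was higher in 6 of 6 tumours (0.55, SE 0.16, adjusted p = 0.661), as were 2.81% of all genes. EREG was higher in 4 (0.75, SE 0.34, adjusted p = 0.861), while EGFR was lower in 4 (-0.26, SE 0.18, adjusted p = 0.927). The cell means called 3 of 5 members of that list, and 0 within classes of detected genes.

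NF-κB targets and cytokines had a median log2 fold change of 1.06 over 17 of 25 members tested. NFKBIA was the 1 member called in the sums and 5 were higher in all 6 tumours, against 0.0601% and 2.81% of all genes. The cell means called 8 of 13 (5 within classes of detected genes), against 5.05% and 1.52% of all genes. CXCL2, a neutrophil-attracting chemokine, stood at 158, 177 and 309 CPM in high cells and at 40.4, 60.4 and 112 CPM in low cells, without overlap (1.68, SE 0.29, adjusted p = 0.113). NFKBIZ, an inducible nuclear cofactor of NF-κB, stood at 56.0, 116 and 136 CPM against 29.8, 37.0 and 52.2 CPM (1.41, SE 0.30, adjusted p = 0.291). CXCL8 was low, at 27.6 to 107 CPM against 6.39 to 39.2 CPM.

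Stress programmes that do not belong to the immediate-early response gave no call in the sums. In the cell means their shares are read against 5.05% of all genes as taken and 1.52% within classes of detected genes. Heat shock genes had 0 of 19 called in the sums, 3 of 19 in the cell means and 2 of 19 within classes of detected genes, with a median log2 fold change of 0.24 in the sums. Of these, DNAJB1, a co-chaperone of HSP70, stood at 908, 1087 and 1927 CPM in high cells and at 600, 868 and 1086 CPM in low cells. Integrated stress and unfolded protein response genes had 0 of 19 called in the sums, a median of 0.01 and 0 of 15 in the cell means. Hypoxia genes had 0 of 19 called, a median of 0.02, 2 of 17 in the cell means and 1 of 17 within classes of detected genes, among the 2 ADM (adrenomedullin) at 152 to 372 CPM against 112 to 236 CPM.

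Targets of p53 had 0 of 13 called in the sums and a median of -0.07. The cell means called 2 of 8, both also within classes of detected genes, against 5.05% and 1.52% of all genes. They were CDKN1A, the cell cycle inhibitor p21, and PMAIP1, the BH3-only protein NOXA. CDKN1A stood at 103, 164 and 257 CPM in high cells and at 50.8, 86.4 and 134 CPM in low cells (log2 fold change 0.87, SE 0.23, adjusted p = 0.586). PMAIP1 stood at 149, 168 and 195 CPM against 55.0, 83.6 and 165 CPM (0.91, SE 0.24, adjusted p = 0.601). YAP and TAZ targets had 0 of 12 called in the sums, and the 2 of 11 called in the cell means, CCN1 and CCN2, also stand in the immediate-early list.

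Growth-related lists lay at or below the median of all genes in the sums, with no member called. S phase genes had the lowest median, -0.43 over 19 genes, 3 of which were lower in all 6 tumours as were 1.6% of all genes, and 0 of 17 were called in the cell means. G2 and M phase genes had a median of -0.17 over 24 genes. Their 2 of 20 calls in the cell means were lost within classes of detected genes. MKI67, a marker of cycling cells, stood at 541, 662 and 1242 CPM in high cells and at 544, 938 and 1126 CPM in low cells (-0.35, SE 0.17, adjusted p = 0.888).

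Ribosomal protein genes had a median of -0.12, and 1 of 35 had a log2 fold change above 0. No list of antigen presentation, interferon-stimulated, actin, respiratory chain or mesenchymal genes had a member called in the sums. Their medians lay between -0.06 (actin and SRF targets) and 0.32 (interferon-stimulated genes).

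**Figure D4:**
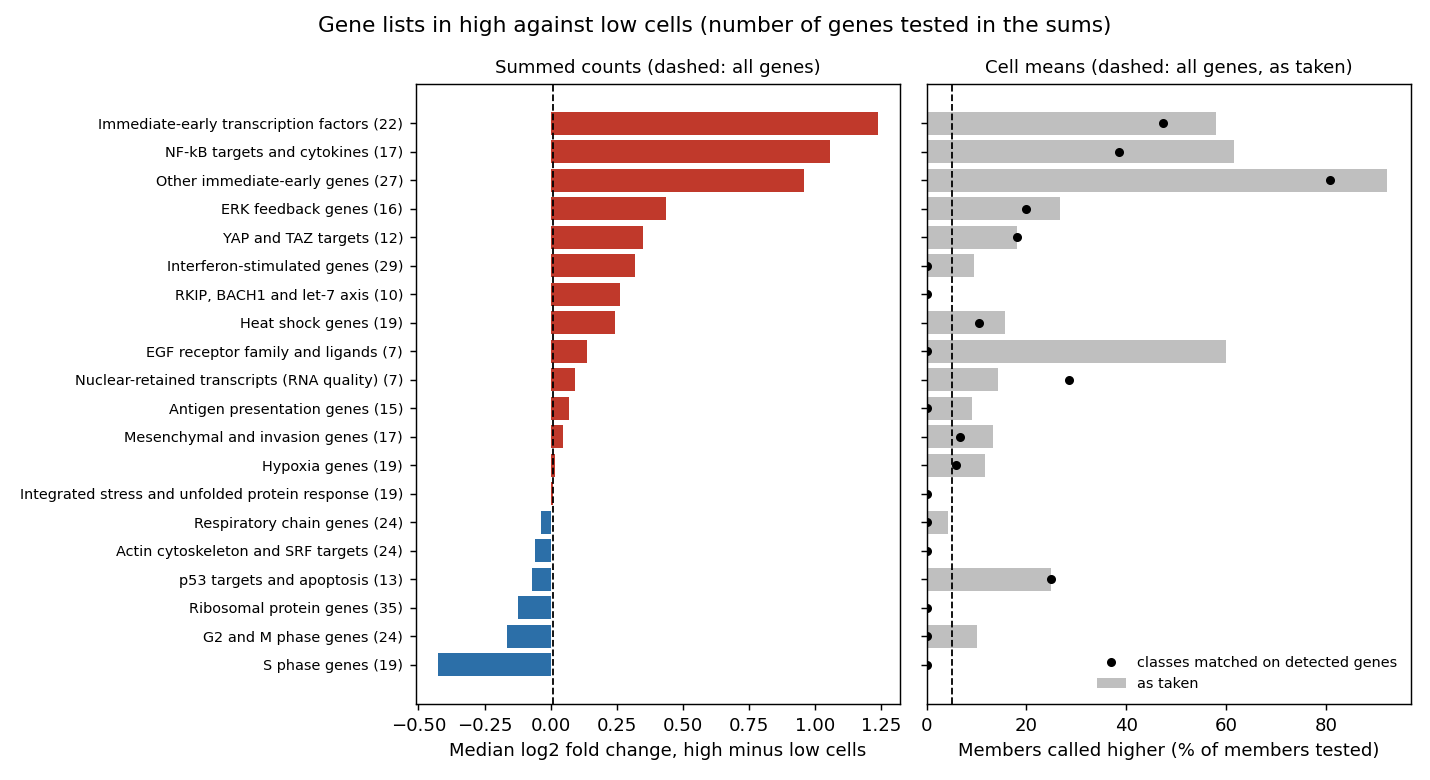
Left, median log2 fold change between high and low cells in the summed counts for each gene list with at least 5 genes in the cell means, cell type markers not drawn, with the dashed line at 0.01 for all genes. Right, share of list members called higher in the cell means as taken (bars) and within classes of detected genes (points), with the dashed line at 5.05% for all genes as taken; both immediate-early lists and the NF-κB list stand at the top on the left, from 0.96 to 1.24.

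Over single cells, the median high cell exceeded the median low cell in the mean list level in 6 of 6 tumours for 13 of 20 lists, heat shock, hypoxia and actin genes among them, in cells that also had more detected genes. The difference was 0.40 to 1.40 for the immediate-early transcription factors, 0.95 to 2.22 for the other immediate-early genes and 0.25 to 0.53 for heat shock genes on the log2(CPM + 1) scale. Ribosomal protein genes, a list that nearly every cell expresses, differed by -0.21 to 0.17. For S phase genes the median high cell stood above the median low cell in 3 of 6 tumours. G2 and M phase genes stood higher in 6 of 6 tumours on this scale, by 0.19 to 1.11, while their median in the sums was below 0.

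Both classes expressed the markers of the line, though a sum over a class does not show what each cell is. VIM, CD44, EGFR, KRT8, KRT18 and KRT19 summed to 5830 to 7331 CPM in high cells and 5033 to 7085 CPM in low cells. Most of this was VIM, with medians of 4572 CPM in high cells and 4265 CPM in low cells. Of 12 leukocyte markers 2 were in the table, and their sum was 67.3 to 146 CPM in high cells and 95.5 to 138 CPM in low cells, nearly all of it LAPTM5; PTPRC and CD53 were not in the table. Of 10 fibroblast markers 3 were in the table, at 2.74 to 44.8 CPM against 1.73 to 17.1 CPM, and of 10 endothelial markers 5, at 46.0 to 113 CPM against 25.8 to 91.0 CPM. Of 12 muscle and adipocyte markers 2 were in the table, at 1.77 to 48.3 CPM against 0.33 to 5.05 CPM. The part of such cells in the differences was not tested. Among 7 nuclear-retained transcripts, read as a sign of RNA quality, 0 were called in the sums. The cell means called 1, NEAT1, and 2 within classes of detected genes, NEAT1 and MALAT1, against 5.05% and 1.52% of all genes. Over single cells their mean level was higher in high cells in 5 of 6 tumours, by a median of 0.59, and their part in the differences was not tested.

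The score itself was compared between the arms over all cells, since taking 25% of the cells within a tumour fixes the number of high cells. Mean scores were 6.83, 6.97 and 7.12 in the CTRL tumours and 6.85, 7.62 and 7.66 in the RKIP tumours. The RKIP tumours were thus higher by 0.40 (6.98 ± 0.15 against 7.38 ± 0.46, SD, n = 3 each), in 3 of 3 experiments, by 0.015, 0.65 and 0.53. An exact two-sided sign-flip permutation over the 3 pairs gave p = 0.25, the smallest p that 3 pairs allow. In cells thinned to 20000 counts, the share above 1 common score of 8.08 was 14.1%, 22.4% and 27.5% in CTRL tumours and 14.7%, 35.9% and 34.3% in RKIP tumours. The exact 95% intervals of RKIP 2 (30.1% to 42.1%) and CTRL 2 (17.4% to 28.2%) did not overlap, while those of experiment 1 (9.78% to 19.4% for CTRL) and experiment 3 did (28.3% to 40.8% for RKIP and 21.8% to 33.8% for CTRL). These intervals cover counting error only.

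No score gene differed between the arms over all cells (0 of 7 by edgeR with the experiment as block, where 0.00688% of 14527 genes were called, and 0 by DESeq2). FOSB and ATF3 had an unadjusted p under 0.05. ATF3 stood at 167, 210 and 291 CPM in the CTRL tumours and at 302, 315 and 346 CPM in the RKIP tumours, a log2 fold change of 0.59 (SE 0.14, adjusted p = 0.975). FOSB stood at 547, 642 and 676 CPM against 595, 837 and 856 CPM (0.31, SE 0.10, adjusted p = 0.975). FOS, JUN, EGR1 and KLF6 lay between -0.15 and 0.04. The RKIP - CTRL difference in what sets high cells apart was tested as an interaction and gave 0 of 13371 genes (0%) by edgeR. It gave 459 at an unadjusted p under 0.05, which unchanged genes pass at a rate of 0.05, 19 by DESeq2 and 0 by limma on cell means. On simulated counts the edgeR interaction recovered 0% of 2-fold and 22% of 4-fold changes, so 0 calls does not show that the arms are alike.

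RKIP tumours carry a rat Pebp1 transgene, whose counts check the label. A transgene count was seen in 0% to 4.62% of the cells of a class in the CTRL tumours, where 0 of 55 cells allows a share of up to 5.45% by the floor of 3 counts and 6.49% by the exact interval. In RKIP 1 it was seen in 8.20% of high cells (95% interval 2.72% to 18.1%) and 6.56% of low cells (1.82% to 15.9%), intervals that overlap those of the CTRL tumours. Few cells of the library labelled RKIP 1 thus showed the transgene. Leaving out each experiment in turn gave a score difference between the arms of 0.27 to 0.59, the highest without experiment 1. The sign-flip permutation gave p = 0.5 each time.

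In RKIP 3 the transgene was seen in 78.3% of high cells (65.8% to 87.9%) and 41.7% of low cells (29.1% to 55.1%), and in 57.6% and 16.9% after thinning. Its level in the sums was 266 CPM against 58.9 CPM. In RKIP 2 the shares were 60.3% and 33.8%. After thinning they were 45.3% (32.8% to 58.3%) and 29.7% (18.9% to 42.4%), with overlapping intervals. The level in the sums of RKIP 2 went the other way, at 377 CPM against 417 CPM, so no order is read there. Over the 6 tumours the transgene was not called (adjusted p = 0.846 by edgeR). Human PEBP1 stood at 250, 284 and 315 CPM in high cells and at 242, 289 and 396 CPM in low cells (-0.12, SE 0.14, adjusted p = 0.968). SNAI1, a repressor that restrains RKIP expression in metastatic lines, was near the floor, at 0.98 to 10.4 CPM against 0 to 2.59 CPM.

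**Figure D5:**
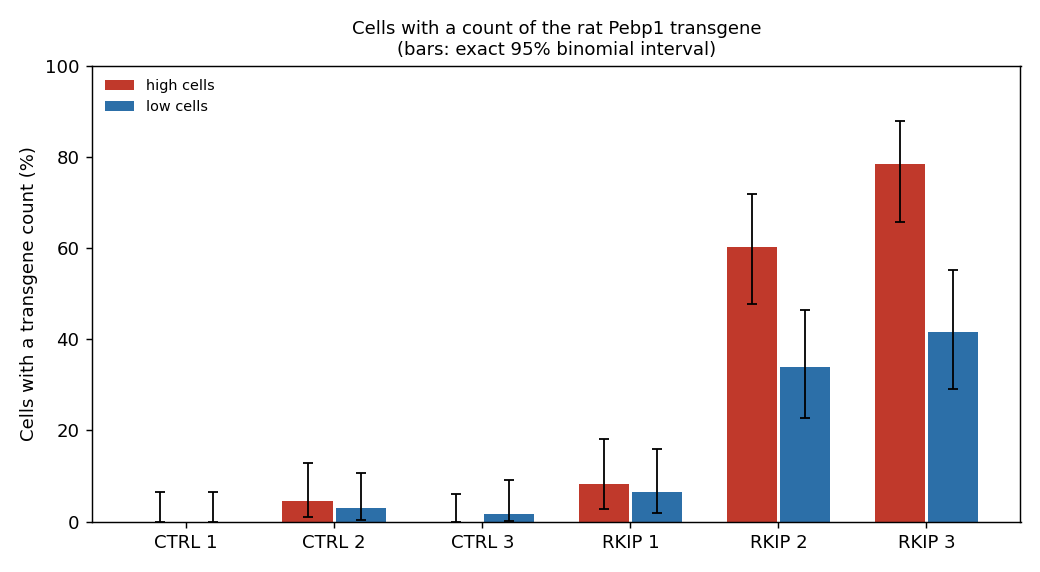
Share of high (red) and low (blue) cells of each tumour with a count of the rat Pebp1 transgene, with exact 95% binomial intervals. The CTRL tumours stand at 0% to 4.62%, RKIP 1 at 6.56% and 8.20%, and RKIP 2 and RKIP 3 at 33.8% to 78.3%.

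The score genes also stood apart in the level of the whole suspension. Bulk RNA-seq of 5 other vector control tumours, collected 4 weeks after implantation, gave FOSB medians of 7.04 CPM, ATF3 of 10.4 CPM and FOS of 24.5 CPM. The single-cell CTRL tumours summed over all cells stood at 642, 210 and 353 CPM, which is 91.2, 20.2 and 14.4 times the bulk median. For EGR1 the ratio was 8.60, for JUN 3.62, for IER3 3.63 and for KLF6 3.10, against a median of 0.69 over 11098 genes, and these 7 ratios stood at or above the 93.4th percentile. The 2 assays differed in dissociation, cell depletion, time after implantation, library kit and genes counted, and these cannot be told apart.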

How the data were processed

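Single-cell values were raw counts per gene and cell, deposited by the authors in 1 table of 15005 genes. Per the labels' protocols, cells came from a Fluidigm C1 HT chip, and no molecular identifiers are named, so counts may include copies made by PCR. STAR, featureCounts and Trim Galore are named in the submitters' processing notes, as are the builds hg38 and hg19, with no role given. The bulk table holds counts deposited by the authors as well. Cells under 2000 detected genes (87, 5.54%) were left out. Doublets were not called, and no mitochondrial or mouse gene is in the table.

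Counts were summed per tumour and class and tested with edgeR 4.0.16 (quasi-likelihood, robust, TMM, filterByExpr, tumour as block), with DESeq2 1.42.0 as an alternative. Mean log2(CPM + 1) over cells thinned to 20000 counts was tested with limma 3.58.1 (trend, robust) for genes seen in at least 10% of thinned cells, a test added after the data were seen. In it, p-values lean on a spread shared across genes. The printed CPM are per 1000000 of the summed counts. Tests ran in R 4.3.3 and were tested on simulated data, the other steps ran in Python 3.11.15, and a call means an adjusted p under 0.05. On simulated counts, edgeR on the high and low sums recovered 18% of 2-fold and 72% of 4-fold rises, so a gene not called may still differ. No file says that the tumours came from separate mice. With the block, high-low p-values rest on how the difference within a tumour varies over tumours. Those between arms rest on how the difference within an experiment varies over experiments.

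The members and the gene lists were chosen with earlier results of these data known. The text names the score genes, every gene called in the sums whose log2 CPM averaged 5 or more, up to 4 members of a list with the smallest p, and a few genes of the RKIP axis. KLF4, NR4A2, PPP1R15A, NEDD9, MALAT1 and CCN1 outside these ranks were named after their values were seen. The share of cells taken, depth, filters, tools, the block and each tumour in turn were varied. Same-numbered CTRL and RKIP tumours come from 1 chip run per the labels, and their deviations from the arm means correlated at 0.16, 0.05 and 0.15.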

Additional observations from a re-analysis of the deposited data

Results flagged for a closer look

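Of 17 groups of 6 values tested for a sample far from the others, 1 stood out, and chance flags about 1 in 20. The log2 ratio of JUN between high and low cells (with 1 CPM added) was 3.83 in RKIP 1, where the other 5 tumours gave 1.62 to 2.22. JUN stood at 88.5 CPM in the low cells of RKIP 1, the lowest of the 6 tumours. RKIP 1 is also the library with few transgene-positive cells. JUN is a score gene, so its ratio was set by the choice of cells and supports nothing.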

How the results depend on the processing

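The 7 calls in the sums became 120 with DESeq2, 15 with the highest and lowest 10%, 22 within classes of detected genes, 1 within chip columns and 14 within chip columns after thinning. Leaving out 1 tumour gave 0 to 7 calls. The 372 cell-mean calls became 120 after centring and 114 within classes of detected genes, with 217 to 336 when 1 tumour was left out. The 4 score genes called when left out of the score became 7 in cell means, and 0 to 2 without 1 tumour. In the sums after thinning, FOS, FOSB and EGR1 were still called and ATF3 was not. The interaction gave 19 calls by DESeq2. The cause of these moves was not tested.

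With no replicate block (tumour), the sums gave 9 calls, the cell means 92, the left-out score genes 3 and the score genes between arms 0, and the arm difference of the score stayed at 0.40 (exact permutation p = 0.30). A replicate block with arm in place of the tumour gave 13 calls. With no block the sign turned for KLF4 (-0.10), PPP1R15A (-0.00084) and, between arms, FOS (0.010).

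PPP1R15A was -0.17 within thinned chip columns. In cell means, MKI67 turned to -0.10 after centring and -0.58 within classes of detected genes, and PEBP1 to -0.17, -0.18 and, within chip columns, -0.028. Without 1 tumour the cell-mean difference of PEBP1 ran from -0.092 to 0.20, and the arm difference of FOS from -0.11 to 0.18, of EGR1 from -0.32 to 0.058 and of KLF6 from -0.074 to 0.17. In the sums NEAT1 turned to -0.017 after thinning and -0.010 within thinned chip columns, and MALAT1 to -5.88e-05 after thinning and -0.0027 with at least 1000 detected genes. Without 1 tumour MALAT1 ran from -0.017 to 0.051 in the sums, and in cell means it was -0.011 after centring. Depth limits the sums: genes under the filter were not tested.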
